A study of Bubalus bubalis with 6 samples.

Results

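The genes described here are the RNA helicase, splicing and RNA-binding genes of a sperm DNA methylation array of the water buffalo (Bubalus bubalis). They were chosen by name alone: every probe whose gene name begins with DDX, DHX, SRSF, SFRS, HNRNP, PRPF, RBM, SF3A, SF3B, SNRP, LSM, CPSF, CSTF, TDRD, PIWIL, NANOS or PUM was taken, with a number after the family name where the family numbers its members. The rule found 106 genes with 288 probes, of 7932 named genes with 19762 named probes on an array of 177440 probes of 60 bases. Frozen semen of 6 bulls was compared, 3 of them high-fertile (numbers 2, 3 and 5) and 3 subfertile (numbers 1, 4 and 5), with 1 array per bull. DNA of each bull was sheared, an antibody that recognises 5-methylcytosine captured the methylated fragments, and the immunoprecipitated DNA (IP, Cy5) was hybridised with the bull's own input DNA (Cy3). The labels name no breed, age or measure of fertility, and no treatment. The array's design text names cattle (Bos taurus) as its organism and CpG islands and promoters as its content. For the probes, the genome build, the strand and the gene feature were not stated in the sources read.

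Every value below is log2(IP/input) relative to the median of its own array, so 0 is the median probe and a positive value means more antibody-bound DNA than at the median probe. It is a relative enrichment and not a percentage of methylated cytosines. The antibody captured sheared fragments, so the number of CpG dinucleotides in a probe does not give the number in the captured DNA around it. Values of bulls are given in the order high-fertile 2, 3 and 5 and then subfertile 1, 4 and 5.

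RNA helicases of the DEAD-box (DDX) and DEAH-box (DHX) families use ATP to unwind or remodel RNA and its protein complexes. Heterogeneous nuclear ribonucleoproteins (hnRNP), SR proteins and the snRNP, SF3, PRPF and LSM subunits package pre-mRNA and build the spliceosome, CPSF and CSTF cleave its 3' end, and most RBM proteins bind RNA through an RNA recognition motif. Male germ cells use many splice forms of their own and store mRNA in germ granules such as the chromatoid body, in which the helicases DDX4 and DDX25 and the Tudor proteins TDRD6 and TDRD7 reside. Mature sperm hardly transcribe, and their methylation was laid down in earlier germ cells.

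To be tested, a probe needed an input signal clearly over background in each of the 6 bulls and no spot marked as uneven by the scanner software. This left 134 of the 288 probes (46.5%, against 38.7% of all named probes) and 71 of the 106 genes. Of these, 14 genes had 3 or more tested probes (gene regions) and 57 had 1 or 2 (thin genes), while 35 genes had none. Coverage was uneven between the families. The SR factors had a tested probe in 8 of 9 genes, the RBM genes in 16 of 19, the 3' end processing genes in 5 of 6, the spliceosome subunits in 18 of 27, the DEAD-box helicases in 11 of 21, the DEAH-box helicases in 6 of 12 and the hnRNP genes in 5 of 9. HNRNPL alone held 18 of the 134 tested probes. The germ-line families were nearly absent: no probe carried a name of the PIWIL or NANOS families, and TDRD6 and TDRD7 had 1 tested probe each. The filter favoured GC-rich probes, with a median GC content of 51.7% among tested probes of these genes against 41.7% among the others, the same medians as over all named probes. No CpG at all was found in 80 of the 288 probes (27.8%), against 33.1% of all named probes and 9.85% of all probes of the array.

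The 6 arrays differed in ways that the fertility groups do not give. By the headers, the first scan date covered 3 arrays (high-fertile 2, high-fertile 3, subfertile 4) and later dates the other 3 (high-fertile 5, subfertile 1, subfertile 5), so bulls of both groups were scanned early and late. On the first date the IP signal was well above background at 59.7% to 89.6% of their tested probes, and afterwards at 94% to 100%. Subfertile bull 1 was read with the CGH protocol of the scanner software and the other arrays with its ChIP protocol. Over the 71 genes, bulls scanned on the same side of this divide correlated at r = 0.48 to 0.77, and bulls on different sides at r = -0.41 to -0.09. The latter range was -0.11 to 0.24 over all 737 gene regions and -0.22 to 0.09 over all 3549 thin genes. For single tested probes it was -0.22 to -0.06 over the 134 of these genes and -0.14 to 0.14 over all named ones. Over all 177440 probes, tested or not, it was 0.07 to 0.30. These correlations are across genes or probes, which are not independent replicates. Markers of other semen cells had few tested probes, 2 of 13 leukocyte genes and 4 of 9 epithelial genes, and of 4 tested genes each that carry an imprint from the father or the mother none and 1 departed from the array median, so the label sperm could not be checked closely from these lists.

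None of the genes differed between high-fertile and subfertile bulls in limma's moderated test with Benjamini-Hochberg adjustment over all genes of a class. This held for 0 of 14 gene regions and 0 of 57 thin genes, where the test called 0% of all 737 gene regions and 0% of all 3549 thin genes. The unadjusted p was below 0.05 for 0 of the 14 and 0 of the 57, against 6 of 737 and 28 of 3549. Among the 14 gene regions, 4 were higher and 10 lower in high-fertile bulls, with a median difference of -0.10 against -0.08 over all gene regions. Among the 57 thin genes, 29 were higher and 28 lower, with a median of 0.00 against 0.00. Their differences ran from -1.03, in a spliceosome subunit, to 1.03, in an RBM gene, against -1.63 to 2.40 over all thin genes. The groups overlapped in both genes, and the smallest unadjusted p of the 57 in limma was 0.0616. With 3 bulls a group the typical standard error was 0.25 for a region and 0.41 for a thin gene, and only differences well beyond these could have passed.

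**Figure D1:**
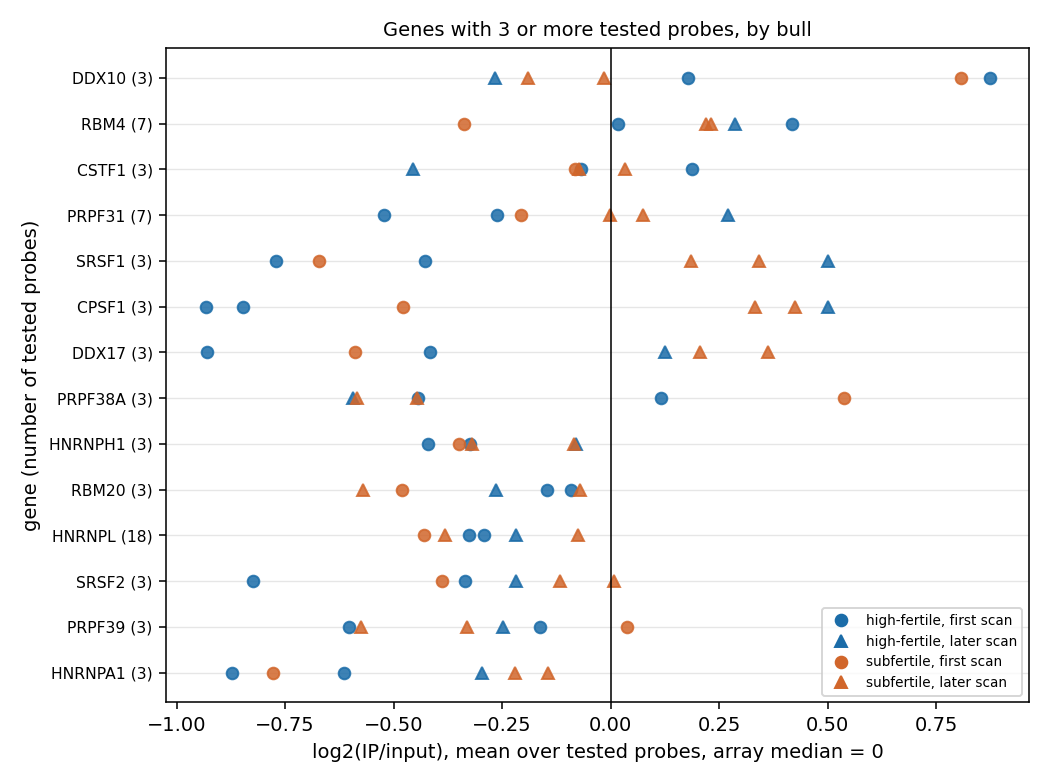
Mean log2(IP/input) of each of the 14 gene regions in each of the 6 bulls (horizontal axis, array median at 0), with the number of tested probes beside the gene name. Colour gives the fertility group and the symbol the scan date; in no row do the blue and orange symbols part into separate groups, while in the rows of CPSF1, SRSF1 and DDX17 all circles lie below 0 and all triangles above it.

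Among the DEAD-box helicases, DDX17, a coregulator of transcription and splicing, read -0.93, -0.42 and 0.12 in the high-fertile bulls and 0.36, -0.59 and 0.21 in the subfertile bulls. Both groups held negative and positive values and overlapped, with a difference of -0.40 ± 0.34 (standard error, n = 3 and 3; limma adjusted p = 1). DDX10, a helicase of ribosome production, read 0.18, 0.87, -0.27, -0.02, 0.81 and -0.19. Its 2 highest bulls, high-fertile 3 and subfertile 4, came from opposite groups. The probes that carry the name DDX10 lie at 2 places on chromosome 15, 1 from base 16182011 and the other from base 17659673, so its mean joins separate stretches of DNA.

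The SR proteins bind exonic enhancers and recruit the splicing machinery. SRSF1 read -0.43, -0.77, 0.50, 0.19, -0.67 and 0.34, a difference of -0.18 ± 0.38. Its lowest bulls and its highest bulls each included both groups. SRSF2 read -0.82, -0.34, -0.22, 0.01, -0.39 and -0.12, a difference of -0.29 ± 0.24. High-fertile bull 2 was the lowest, and the other values of both groups were interleaved. The tested probes of SRSF2 fall in runs of neighbouring probes that also carry the name of MFSD11.

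All 3 hnRNP gene regions lay below the array median in every bull. HNRNPA1, which shuttles with mRNA and represses splice sites, read -0.61, -0.87, -0.30, -0.14, -0.78 and -0.22, a difference of -0.21 ± 0.26. HNRNPH1, which binds G-rich sequences, read -0.42, -0.32, -0.08, -0.32, -0.35 and -0.08, a difference of -0.02 ± 0.21. The lowest bull of each was high-fertile, but subfertile values lay within the high-fertile range. HNRNPL, which binds CA-rich RNA, read -0.33, -0.29, -0.22, -0.07, -0.43 and -0.38, and its 95% interval for the difference ran from -0.45 to 0.48 around 0.02. With 18 tested probes it was the most densely measured of the genes, and the group means of -0.28 and -0.29 were nearly equal.

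Of the spliceosome subunits, PRPF31, a protein of the tri-snRNP, read -0.26, -0.52, 0.27, 0.07, -0.21 and 0.00, a difference of -0.13 ± 0.25. PRPF38A, which acts when the spliceosome is activated, read -0.44, 0.12, -0.59, -0.45, 0.54 and -0.58, and its difference was -0.14 ± 0.34. Neither parted the groups, and subfertile bull 4 stood highest in PRPF38A. The 7 tested probes of PRPF31 lie in a run of 42 probes shared with TFPT, and those of PRPF38A in a run shared with ORC1, so their values cannot be given to 1 gene alone. PRPF39 read -0.60, -0.16, -0.25, -0.33, 0.04 and -0.57, a difference of -0.05 ± 0.24.

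In the 3' end processing group, CPSF1, the largest subunit of the complex that reads the polyadenylation signal, gave the lowest difference of the 14 regions, -0.52 ± 0.41. It read -0.93, -0.85, 0.50, 0.43, -0.48 and 0.33, and high-fertile bull 5 was the highest of all 6 bulls, so the groups overlapped. Its tested probes carry the name CPSF1 at 1 position on chromosome 14 and at a pair of overlapping positions on chromosome 17, so the mean joins separate stretches. CSTF1, a subunit of the cleavage stimulation factor, read -0.07, 0.19, -0.45, -0.07, -0.08 and 0.03, a difference of -0.07 ± 0.23. The high-fertile bulls held both its lowest and its highest value.

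RBM4 and RBM20 gave the highest differences of the 14 regions, 0.20 ± 0.24 and 0.21 ± 0.22. RBM4, a splicing and translation factor, read 0.02, 0.42, 0.29, 0.22, -0.34 and 0.23, with subfertile bull 4 apart from the other bulls of its group. Its 7 tested probes lie in 2 runs of neighbouring probes that went opposite ways: the run at chr29:46582055-46582574 (30 probes) differed by 0.37 ± 0.31 and the run at chr29:46587458-46587709 (17 probes) by -0.34 ± 0.29, and neither reached the threshold. RBM20, known for splicing of titin in heart muscle, read -0.09, -0.15, -0.27, -0.07, -0.48 and -0.57, below 0 in all 6 bulls.

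**Figure D2:**
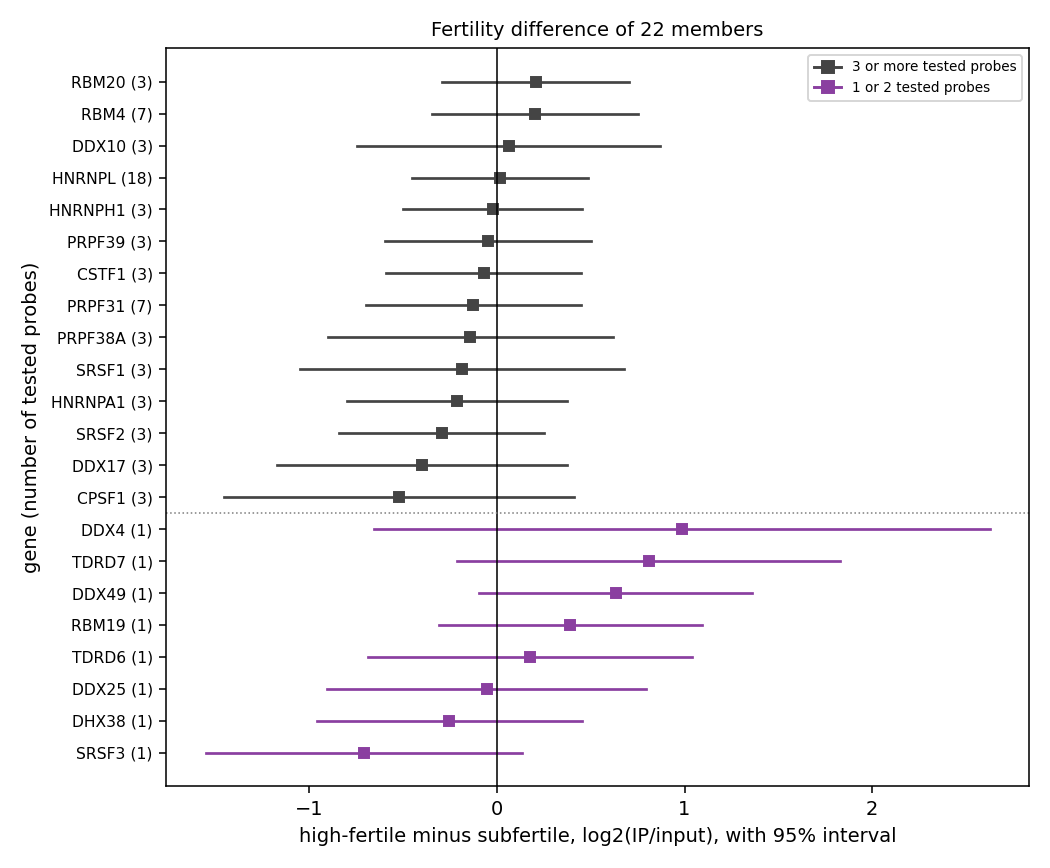
Difference in log2(IP/input), high-fertile minus subfertile, for the 14 gene regions (grey) and 8 thin genes (purple), each with its 95% interval from limma. All 22 intervals include 0, and that of DDX4, from -0.66 to 2.63, is the widest.

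The bulls of both groups were fully separated in 4 of the 57 thin genes (7.02%), where this held for 4.06% of all thin genes, and in 0 of the 14 gene regions, against 2.99% of all gene regions. DDX49 and RBM19, a helicase and an RNA-binding protein of ribosome production, were higher in all high-fertile bulls. SRSF3, an SR protein of splicing and mRNA export, and DHX38, the helicase of the second splicing step, were lower. Each of these genes had a single tested probe. Among single probes, 7 of 134 (5.22%) separated the groups, against 5.78% of all tested probes, and the largest such difference was at a probe of LSM7, a protein of the ring that binds the U-rich end of spliceosomal RNA. The 3 of these probes with the largest differences and the second probe of LSM7 follow as deposited, 5′ to 3′, with each CpG of the probe in capitals.
DDX49 chr7:4218979-4219038: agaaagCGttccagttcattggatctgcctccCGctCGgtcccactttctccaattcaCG
SRSF3 chr23:10813391-10813450: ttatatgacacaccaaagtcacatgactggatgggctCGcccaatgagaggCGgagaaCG
LSM7 chr7:19956467-19956526: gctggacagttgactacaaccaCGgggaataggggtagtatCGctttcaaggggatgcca
LSM7 chr7:19957282-19957341: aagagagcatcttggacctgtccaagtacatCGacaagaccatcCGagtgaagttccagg

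DDX49 read 0.55, 0.46 and 0.08 in the high-fertile bulls and -0.17, -0.45 and -0.18 in the subfertile bulls. Every high-fertile value lay above 0 and every subfertile value below it, with a difference of 0.63 ± 0.31 (unadjusted p = 0.0791, limma adjusted p = 1). Within the first scan date the difference was 0.96 and within the later dates 0.26. The 5 probes of the run around it, which also carry the name COPE, did not share the difference (0.00 ± 0.29).

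SRSF3 read -0.80, -0.35 and -0.20 against 0.17, 0.73 and -0.12. Its difference of -0.71 ± 0.36 (unadjusted p = 0.087, limma adjusted p = 1) was -1.30 within the first date and -0.23 within the later dates. The 15-probe run that contains this probe differed by 0.03 ± 0.25, so its neighbours again did not move with it. The first LSM7 probe read -1.75, -1.21 and -0.33 against 0.15, -0.06 and -0.19, a difference of -1.07 ± 0.39 (unadjusted p = 0.0202, limma adjusted p = 1). The second LSM7 probe, printed above and with the same number of 2 CpGs, differed by -0.02 ± 0.37, and the groups overlapped there.

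RBM19 read 0.04, -0.21 and -0.25 against -0.46, -0.42 and -0.71, a difference of 0.39 ± 0.30. DHX38 read -0.61, -0.27 and -0.27 against 0.03, -0.23 and -0.18, a difference of -0.25 ± 0.30, and the gap between its groups was only a few hundredths. In the runs around them the differences were 0.14 ± 0.25 for RBM19 and 0.08 ± 0.20 for DHX38. Of the other probes that separated the groups, those of RBM4B (0.31 ± 0.28) and HNRNPA1 (-0.31 ± 0.28) differed by about their standard error.

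Runs of at least 3 tested probes with gaps of at most 500 bases, named or not, gave a wider view of the same loci. A name of these genes occurred in 49 of 9334 runs, and 0 of the 49 passed the threshold, as did 0% of all runs; the unadjusted p was below 0.05 in 0 of the 49 and in 43 of the 9334. The groups of bulls were separated in 1 of the 49 (2.04%), against 2.82% of all runs: the run of SRSF6 read -0.27, -0.11 and -0.27 against -0.34, -0.63 and -0.42. The 4 runs with the smallest p were all lower in high-fertile bulls. The run of RBM39, a splicing coactivator, differed by -0.47 ± 0.26, that of RBM28, a nucleolar protein, by -0.73 ± 0.40, that of CSTF1 by -0.39 ± 0.24 and that of PRPF39 by -0.33 ± 0.24. In each of them the groups overlapped, and high-fertile bulls 2 and 3, both of the first date, held the lowest values. High-fertile bull 5 read 0.16, 0.06, -0.45 and -0.41 in these runs. Within the first date the differences were -0.64 for RBM39, -1.33 for RBM28, -0.27 for CSTF1 and -0.58 for PRPF39, and within the later dates -0.03, 0.26, -0.23 and 0.09. The IP signal of the RBM28 run was above background at 2 of 12 early spots and 12 of 12 late spots, and that of the CSTF1 run at 14 and 30 of 33, so these early values are weakly measured.

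Taking the scan date into account brought no gene of the group past the threshold: with the date as a block the count was 0 of 14 and 0 of 57, against 0% of both classes. On the first date alone it was also 0 of 14 and 0 of 57, against 0% of gene regions and 0.113% of thin genes. Among the late scans, 1 high-fertile bull (5) against 2 subfertile bulls (1, 5), it was 0 of 14 and 1 of 57, against 0.543% and 2.14%. That gene was DHX40, a DEAH-box helicase with 1 tested probe, at -1.31 in the high-fertile and 0.20 and -0.28 in the subfertile animals (difference -1.27 ± 0.36, limma adjusted p = 0.0237). The IP signal of DHX40 was not well above background in that high-fertile bull, so its value is not an exact level there and the size of the difference is uncertain. Both comparisons within dates have a lone bull in 1 group, subfertile bull 4 early and high-fertile bull 5 late, and assume that it varies as the other bulls do. The difference between fertility effects on the first and the later dates was tested over the 737 gene regions, and 0 passed the threshold in limma with 25 at an unadjusted p below 0.05, none of them among the 14.

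The germ-line members with a tested probe were DDX4, the vasa helicase that marks germ cells, DDX25, a testis helicase of round spermatids, and the chromatoid body proteins TDRD6 and TDRD7. Sequences of the first 3 probes are given, since each of these genes rested on this single stretch, with CpGs in capitals.
DDX4 chr20:25002129-25002188: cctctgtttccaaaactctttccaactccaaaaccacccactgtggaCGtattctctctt
DDX25 chr29:30820535-30820594: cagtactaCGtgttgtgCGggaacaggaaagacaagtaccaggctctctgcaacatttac
TDRD6 chr23:20635919-20635978: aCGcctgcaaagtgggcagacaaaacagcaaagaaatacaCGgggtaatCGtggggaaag

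DDX4, whose probe holds 1 CpG, read 0.72, 1.21 and -0.96 in the high-fertile bulls and -0.57, 0.34 and -1.75 in the subfertile bulls. Its difference of 0.99 ± 0.71 (limma adjusted p = 1) was smaller within the dates, 0.63 and 0.20, and the 3 bulls of the first date stood above the other 3. Only 2 of the 6 arrays had an IP signal above background at this probe. DDX25 read -0.42, -0.13, 0.50, -0.01, -0.20 and 0.32, a difference of -0.06 ± 0.37 with both groups on both sides of 0. TDRD6 read -0.20, -0.22, 0.33, -0.03, 0.15 and -0.74, a difference of 0.18 ± 0.37. TDRD7 read 0.13, -0.17 and 0.87 against 0.09, -1.08 and -0.61, a difference of 0.81 ± 0.44 (limma adjusted p = 1). High-fertile values of TDRD7 exceeded the subfertile ones by 1.06 within the first date and 1.13 within the later dates, but none of the 3 arrays of the first date measured its IP signal above background.

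The level of each gene over all 6 bulls was then compared with the array median. Of the gene regions, 2 of 14 (14.3%) were lower in limma, against 23.3% of all gene regions, and 0 were higher, against 1.09%. Of the thin genes, 2 of 57 (3.51%) were lower, against 5.47%, and 0 were higher, against 0.676%. The medians were -0.22 for the 14 regions and -0.18 for all regions, and -0.13 for both the 57 and all thin genes. These calls depended on the centring and on single bulls. Tested probes had an array median of -0.33 to -0.01, and centring on them left 0 of 14 and 0 of 57 past the threshold; leaving out 1 bull gave 0 or 1 of 14 and, except without high-fertile bull 3 (2 of 57), 0 of 57.

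The lowest was PRPF19, the ubiquitin ligase of the spliceosome, at -1.31 ± 0.28 (limma adjusted p = 0.0336). It read -1.81, -2.59, -0.83, -0.69, -0.55 and -1.37, below 0 in every bull and lowest in high-fertile bulls 2 and 3. DDX21, a nucleolar helicase, read -1.16, -1.59, -0.67, -1.001, -0.46 and -0.70 and averaged -0.93 ± 0.18 (limma adjusted p = 0.0291). Both rested on 1 probe, whose IP signal was above background in 4 of 6 arrays for PRPF19 and 5 of 6 for DDX21. CPSF3, the endonuclease of 3' end cleavage, came after them in level at -0.76 ± 0.20 and did not pass the threshold (limma adjusted p = 0.0562). The run around PRPF19 averaged -0.65 and that around DDX21 -0.56, below 0 as well.

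HNRNPA1 averaged -0.49 ± 0.12 (limma adjusted p = 0.0183). Its probe at the lowest coordinate holds 7 CpGs, which only 3 of the 288 probes do, and it is printed because it was low in all 6 bulls, with CpGs in capitals.
HNRNPA1 chr5:28636207-28636266: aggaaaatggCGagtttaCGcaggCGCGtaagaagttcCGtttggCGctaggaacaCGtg

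It read -1.01, -1.16, -0.89, -0.71, -0.71 and -0.71, a narrow range that did not follow the scan dates. The other probes of HNRNPA1, with 2 and 3 CpGs, read -0.65 to 0.18 and -1.19 to 0.10.

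HNRNPL averaged -0.29 ± 0.09 (limma adjusted p = 0.0461). All 5 hnRNP genes with a tested probe lay below 0 in mean, as did 556 of all 737 gene regions and 2204 of all 3549 thin genes. Centred on tested probes, HNRNPA2B1 stood at 0.08. The run of 21 probes around HNRNPA2B1 averaged 0.13 in the main setting, with 5 of 6 bulls above 0. The run of HNRNPL at chr18:48086865-48089019 holds 149 probes over 2155 bases, of which 18 carry the gene's name. Many of these probes overlap, so they are not independent. The run averaged -0.44, -0.30, -0.28, -0.14, -0.40 and -0.36 in the 6 bulls, and 124 of its 149 probes were below 0 in the mean of all bulls. The median of all tested probes was also below 0 on each array, at -0.33 to -0.01. The level was not even along the run. Cut into 3 stretches of equal length, it averaged -0.28 in the first, -0.48 in the middle and -0.15 in the last. High-fertile and subfertile means were -0.32 and -0.23 in the first stretch, -0.49 and -0.46 in the middle and -0.16 and -0.13 in the last stretch. Single probes of the run moved both ways between scan dates. The probe 581 bases from its start averaged 0.39 early and -0.92 later, and that at 1923 bases -0.28 and 0.52.

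**Figure D3:**
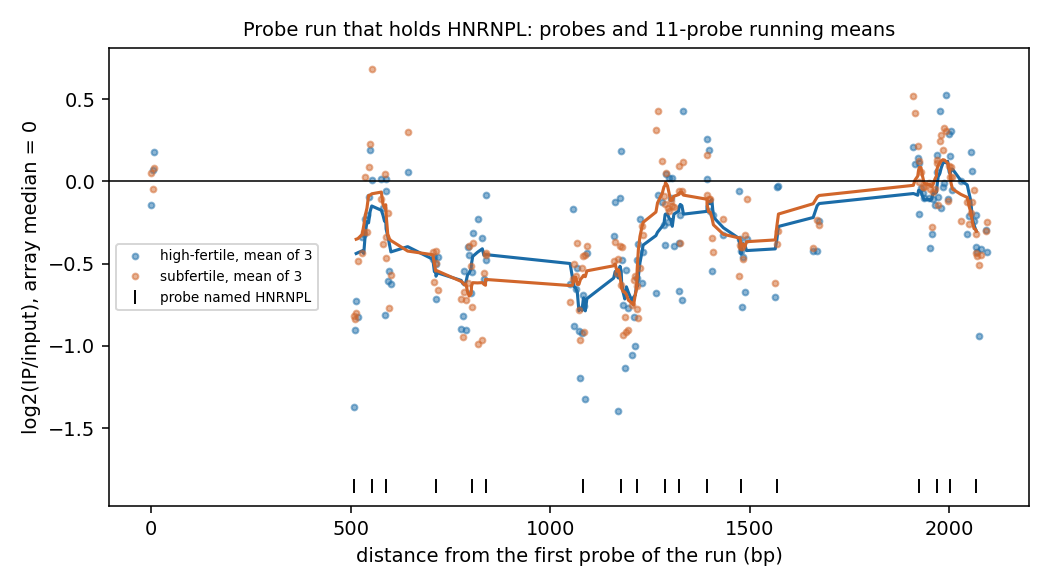
Relative level of the 149 probes of the run that holds HNRNPL against the distance from its first probe, as means of 3 high-fertile (blue) and 3 subfertile (orange) bulls, with running means over 11 probes; ticks mark the 18 probes that carry the gene's name. The lines of both groups run together and lie lowest in the middle, with 65 of the 69 probes there below 0.

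At the other end no gene passed the threshold. DHX40 averaged 0.88 ± 0.51 from 1.45, 2.64, -1.31, 0.20, 2.56 and -0.28, a mean carried by 3 bulls. DHX57, also a DEAH-box helicase, averaged 0.51 ± 0.31 from 0.30, 1.58, -0.06, -0.11, 1.72 and -0.37, and again the bulls of the first date were the high ones. SRSF9, an SR protein, read 0.68, 0.78, 0.12, 0.08, 0.84 and 0.02, above 0 in every bull, with a mean of 0.42 ± 0.18 and 0 CpGs in its probe. RBM7, an adaptor of the nuclear exosome, averaged 0.35 ± 0.18 and RBM5, a splicing regulator, 0.28 ± 0.18. In both genes 5 of 6 or 4 of 6 bulls lay above 0, and high-fertile bull 2 was the lowest.

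The split into first and later scan dates, with the fertility group in the model, parted more of these genes than fertility did. Slide and protocol partly follow this split, so their effects and that of the date cannot be fully told apart. Of the gene regions, 3 of 14 (21.4%) were higher on the later dates, against 14.0% of all gene regions, and 2 of 14 (14.3%) lower, against 6.78%. Of the thin genes, 3 of 57 (5.26%) were higher, against 7.13%, and 11 of 57 (19.3%) lower, against 14.8%. Centring moved this split: the 737 gene regions gave 103 higher and 50 lower in the main setting and 26 and 82 with centring on tested probes, and the 3549 thin genes 253 and 524 against 143 and 824. The median of all gene regions moved from 0.17 to -0.07 and that of thin genes from -0.08 to -0.32. Under that centring the genes of the group gave 2 higher and 2 lower of 14, and 2 higher and 16 lower of 57. The calls depended on single bulls. Without high-fertile bull 5, or without subfertile bull 4, 0 of 14 and 0 of 57 passed. Without subfertile bull 1 the counts were 0 and 8, without subfertile bull 5 they were 2 and 2, without high-fertile bull 3 they were 5 and 11, and without high-fertile bull 2 they were 6 and 21.

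**Figure D4:**
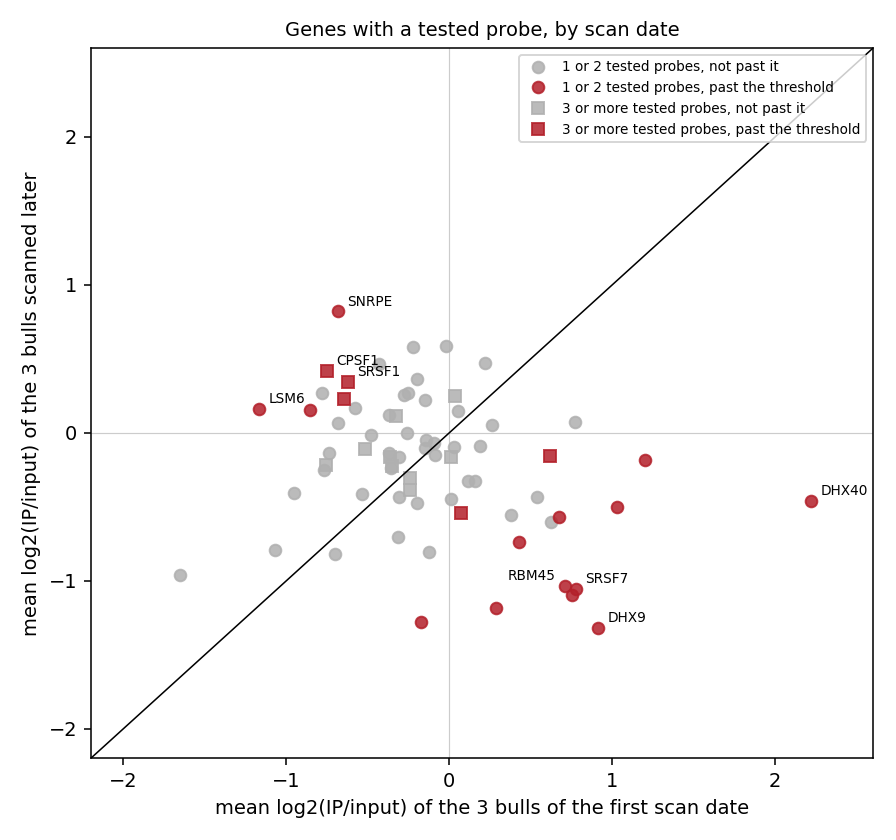
Mean log2(IP/input) of 71 genes in the 3 bulls of the first scan date (horizontal) and the 3 bulls of the later dates (vertical), with the diagonal of equal values; red marks genes past the threshold between dates. Genes below the diagonal at the right, such as DHX40 and DHX9, were high on the first date and low later, and SNRPE, LSM6, CPSF1 and SRSF1 lay on the opposite side.

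DHX40 fell by 2.98 ± 0.40 on the later dates (limma adjusted p = 0.00842), from 1.45, 2.64 and 2.56 early to -1.31, 0.20 and -0.28 late. DHX9, a helicase of double-stranded RNA and transcription complexes, fell by 2.37 ± 0.40 (limma adjusted p = 0.0102), from 1.03, 0.97 and 0.74 to -2.07, -1.35 and -0.53. Its IP signal was above background in 2 of 3 arrays on either side and not in high-fertile bull 5, the lowest, so the size of the fall is uncertain, as it is for DHX40 with the same bull. SRSF7 fell by 1.85 ± 0.36 (limma adjusted p = 0.0145) and RBM45 by 1.73 ± 0.48 (limma adjusted p = 0.0422), the latter with an IP signal above background in 2 of 6 arrays. In each of the 4 genes all 3 bulls of the first date lay above the other 3. DDX4 fell by 1.71 ± 0.38 (limma adjusted p = 0.0229), and DDX10 by 0.85 ± 0.22 (limma adjusted p = 0.0297). In DDX10 the probe from base 16182011 holds no CpG and read 1.65, 1.85 and 1.71 early and -0.83, -0.56 and -0.41 later.

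In the other direction, SNRPE, a core protein of spliceosomal snRNPs, measured 1.74 ± 0.32 higher on the later dates (limma adjusted p = 0.0128), from -0.62, 0.00 and -1.43 to 1.01, 0.83 and 0.63. None of the 3 arrays of the first date measured its IP signal above background, so the ratio is only bounded there, and it was at least 1.34-fold higher on the later dates, taking the dimmest well-measured signal of each array as the floor. The run of 9 probes that holds it averaged 0.39 early and 0.64 late and was above 0 in all 6 bulls. LSM6, of the same kind of ring as LSM7, measured 1.38 ± 0.32 higher (limma adjusted p = 0.0243), with an IP signal above background in only 1 of 3 early arrays against 3 of 3 late. CPSF1 rose by 1.12 ± 0.19 (limma adjusted p = 0.00936) and SRSF1 by 1.02 ± 0.19 (limma adjusted p = 0.0107). Both stretches of CPSF1 moved alike: the run on chromosome 14 read -0.06, -0.25 and 0.07 early and 1.15, 0.92 and 1.01 later, and the run on chromosome 17 read -0.68, -0.95 and -0.92 and then 0.10, 0.22 and 0.14. DDX17 rose by 0.84 ± 0.20 (limma adjusted p = 0.0249) and did not pass with centring on tested probes.

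The direction between dates mostly went with the CpG number of the probes. The following probes of genes past the threshold were picked to show few and many CpGs, not by the size of the change. DHX9, DHX40 and DDX10 fell and LSM6 and SRSF1 rose, and CpGs are in capitals.
DHX9 chr16:61470118-61470177: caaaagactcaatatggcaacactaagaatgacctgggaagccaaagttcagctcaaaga
DHX40 chr19:9822229-9822288: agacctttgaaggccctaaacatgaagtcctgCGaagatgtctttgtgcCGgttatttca
DDX10 chr15:16182011-16182070: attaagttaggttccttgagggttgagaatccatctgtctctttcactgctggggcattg
LSM6 chr17:13090685-13090744: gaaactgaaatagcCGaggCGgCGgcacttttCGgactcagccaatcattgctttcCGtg
SRSF1 chr19:8032907-8032966: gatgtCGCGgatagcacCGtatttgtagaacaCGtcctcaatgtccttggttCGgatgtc

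Of the 11 thin genes that fell, 9 had a mean of at most 1 CpG per tested probe, and the 6 genes that rose had a mean of 3 or more. Of all 134 tested probes, the 10 without a CpG had an early median of 0.29 and a late median of -0.70, and the 18 with 1 CpG 0.30 and -0.59. The 19 probes with 5 or more CpGs stood at -0.44 and -0.12. PRPF38A was an exception, with a mean of 4 CpGs and a fall of 0.74 ± 0.23 (limma adjusted p = 0.0462). DHX40, the gene with the largest fall, was another, with 2 CpGs in its probe. The 28 tested probes with 2 CpGs had medians of -0.27 early and -0.14 late. The 983 tested named probes without a CpG had medians of 0.25 and -0.45 and the 717 with 5 or more -0.48 and -0.09, a change in the same direction. Over all tested probes, named or not, it was smaller or absent at low CpG number: the 4668 without a CpG had medians of -0.01 and -0.13, and the 15236 with 1 CpG went the other way, from -0.16 to -0.03. How much CpG number, signal over background and the scan date each contribute was not tested.

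**Figure D5:**
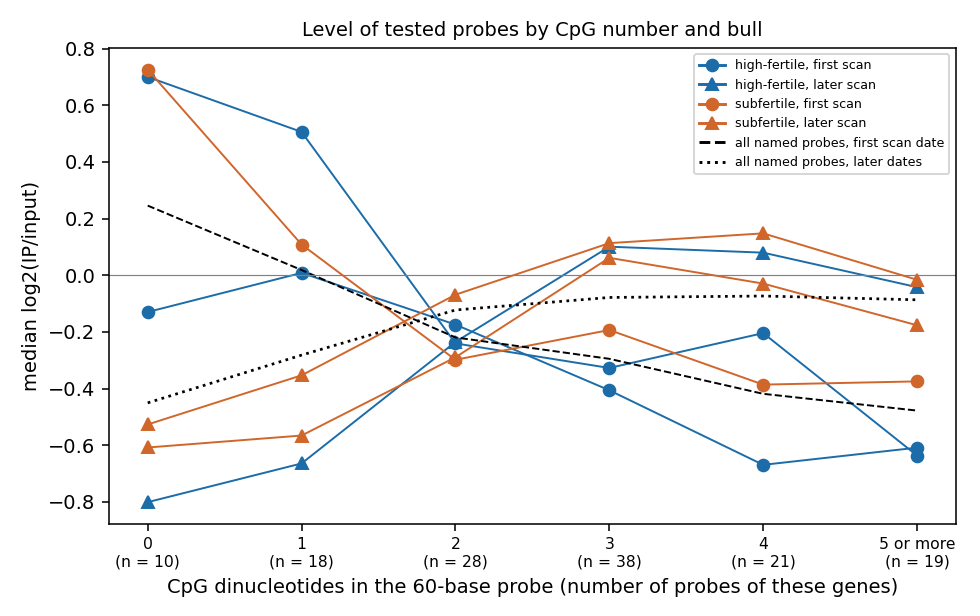
Median log2(IP/input) of the 134 tested probes by number of CpGs, as 1 line per bull, coloured by fertility group and with circles for the first scan date and triangles for later dates; broken lines give the medians of all tested named probes. On the whole the circles fall from left to right and the triangles rise up to 3 CpGs, and both fertility groups follow the line of their scan date.

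Genes of related pathways outside the name rule gave the same picture for fertility. Of the other piRNA and germ-granule genes 4 of 26 listed had a tested probe, of the other germ-cell RNA-binding genes 11 of 41, of the other splicing genes 19 of 52 and of the other 3' end processing and RNA decay genes 23 of 48. None of these 57 genes passed the threshold for fertility, and their median differences were -0.20, 0.00, -0.08 and 0.06. YTHDC2, a helicase needed for meiotic entry, read -1.22, -1.86 and -1.08 in the high-fertile bulls and -0.38, -0.24 and -0.59 in the subfertile bulls, and the groups did not overlap. Its difference was -0.98 ± 0.34 (unadjusted p = 0.0222, limma adjusted p = 1). DCP1B, an mRNA decapping cofactor, differed by -0.89 ± 0.45 with overlapping groups, and PAN2, a deadenylase subunit, by 1.15 ± 0.71 with high-fertile bull 3 far above the rest at 2.12. DGCR8, the partner of DROSHA in microRNA processing, had 14 tested probes and differed by -0.32 ± 0.24. Between scan dates 1, 1, 4 and 5 genes of these lists passed the threshold, of 4, 11, 19 and 23 with a tested probe. Over all genes 153 of 737 gene regions and 777 of 3549 thin genes passed. For the level against the array median 0, 2, 3 and 1 were lower, against 23.3% of all gene regions and 5.47% of all thin genes. Higher were 0, 1, 1 and 0, against 1.09% and 0.676%. The higher splicing gene was BCAS2, a protein of the spliceosome with 3 tested probes, which averaged 0.88 (limma adjusted p = 0.0336). It read 1.06, 2.38, 0.22, 0.24, 1.05 and 0.35, above 0 in every bull and highest in the bulls of the first date. On the later dates it fell by 1.13 (limma adjusted p = 0.0423).

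A check within the arrays was possible because 35 probes of these genes, in 28 genes, had an unnamed spot with the same sequence. Over the 25 such pairs that were tested, the values of both spots correlated at r = 0.22 (subfertile bull 4) to 0.84 (subfertile bull 5). Their median absolute difference was 0.14 to 0.49, largest in high-fertile bull 2. The median standard error of a fertility difference at a single tested probe of these genes was 0.38. It belongs to a difference between means of 3 bulls, so it is not on the same scale as the difference between spots. How much of it comes from the spots was not tested.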

How the data were processed

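The 6 two-colour arrays were analysed, 1 per bull, so a spread between arrays is a spread between bulls, and their number limits the precision. Per the file headers, the deposited spot intensities come from Agilent Feature Extraction, version 10.7.3.1, which detrended and dye-normalized them; the deposited log10 ratio is IP over input, and the deposited series table holds it as log2. The dyes were not swapped. From the processed intensities log2(IP/input) was computed and shifted so that the median of the non-control probes of an array is 0; neither loess nor quantile normalization was applied. Gene names stand in 3 of the 6 files and were joined by probe; 101 of the 106 names are symbols of a RefSeq gene table (assembly NDDB_SH_1), used for names only. Probes of a gene were averaged and tested with limma 3.58.1 in R 4.3.3 (lmFit, eBayes, Benjamini-Hochberg, threshold 0.05), separately for genes with 3 or more and with 1 or 2 tested probes, single probes and probe runs; the steps were tested on simulated data. The means ± SE are from limma.

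The members and lists were chosen with earlier results of these data known. Named are all gene regions, thin genes and probes with separated groups, and runs with separated groups or the smallest p. Thin genes were not chosen by the size or the p of their fertility difference. Also named are 5 high and 5 low levels (genes past the threshold taken first, then by size) and the largest differences between dates. All germ-line members and up to 3 genes of each other list are named too. Background correction, source of ratios, filter, centring, scan date, slide, summary and each bull were varied. No columns of other samples were found.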

Additional observations from a re-analysis of the deposited data

How the results depend on the processing

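No paired analysis was possible because the groups share only the number 5, which marks different bulls. Leaving out each bull in turn, like every other setting except the later dates alone and the first date alone, left 0 genes, probes or runs past the threshold for fertility (range 0 to 0). On the later dates alone limma called 4 of all gene regions, 76 thin genes (1 of them DHX40) and 34 probes, and on the first date alone 4 thin genes. Among levels against the array median, the main counts of 180 regions and 218 thin genes (2 and 2 of the described genes) became 288 and 541 (7 and 9) with normexp, 2 and 354 (0 of 43 and 3 of 63, 2 of the 3 higher) without the filter, 87 and 105 (0 and 0) with centring on tested probes, and 345 and 1024 (6 and 12) with the scan date as a block; with the slide as a block the described genes gave 1 of 14 and 3 of 57. Without 1 bull they ran from 101 to 199 regions (0 to 1) and 0 to 128 thin genes (0 to 2), with 0 thin genes without high-fertile bulls 2 or 5 or subfertile bull 5. Between scan dates, 153 regions and 777 thin genes (5 and 14) became 290 and 1202 with normexp and 1599 (22) and 1319 without the filter. Without 1 bull they ran from 0 to 249 (0 to 6) and 0 to 1209 (0 to 21), lowest without high-fertile bull 5. The cause of these shifts was not tested.

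Fertility differences that changed sign, none past the threshold, were as follows. Without the filter CSTF1 was 0.36, DDX17 0.35, HNRNPA1 0.029, HNRNPH1 0.087, PRPF38A 0.056, PRPF39 0.33, SRSF1 0.19 and SRSF2 0.010. The median over all genes moved the same way, from -0.08 to 0.26 for genes with 3 or more probes. For those with 1 or 2 it moved from -0.001 to 0.25. Of the described genes with 3 or more probes 38 of 43 were then above 0, against 4 of 14 with the filter. With normexp DDX10 was -0.00074, HNRNPL -0.095, RBM4 -0.11 and TDRD6 -0.029. Centred on tested probes CSTF1 was 0.0033, HNRNPH1 0.051, PRPF39 0.025 and DDX25 0.018. With the date as a block DDX10 was -0.22, HNRNPH1 0.051, PRPF31 0.024, SRSF1 0.15 and DDX25 0.13. On the first date alone CSTF1 was 0.14, DDX10 -0.28, HNRNPA1 0.035, SRSF1 0.072 and TDRD6 -0.36. On the later dates alone CPSF1 was 0.12, DDX10 -0.16, HNRNPH1 0.12, PRPF31 0.23, PRPF39 0.20, SRSF1 0.24, DDX25 0.34, PRPF39's run 0.089 and RBM28's run 0.26. By the median over probes DDX10 was -0.11, PRPF31 0.031, PRPF38A 0.038 and RBM4 -0.051. Without the filter the difference between dates turned to -0.85 in DDX17 and -0.053 in LSM6. Its median over all genes was then -0.82 for those with 3 or more probes and -0.87 for those with 1 or 2. Leaving out 1 bull turned 10 genes, over these ranges: CSTF1 (-0.22 to 0.10), DDX10 (-0.24 to 0.37), DDX25 (-0.32 to 0.15), HNRNPH1 (-0.12 to 0.061), HNRNPL (-0.051 to 0.13), PRPF31 (-0.35 to 0.049), PRPF38A (-0.35 to 0.21), PRPF39 (-0.19 to 0.12), SRSF1 (-0.55 to 0.084) and TDRD6 (-0.089 to 0.36). The IP signal limits these values most in high-fertile bull 2, where it was above background at 59.7% of tested probes.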

Other observations

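The 35 genes without a tested probe, among them DDX5, DHX15, DHX36, HNRNPU, SNRPB, SF3B2 and RBM46, are described by their range. Their 54 probes had an input signal well above background in 113 of 324 spots and an IP signal in 51, and 14 of the genes had no spot with an IP signal above background. Without the filter their mean over 6 bulls ran from -0.47 (DHX8) to 1.31 (SNRPB) with a median of 0.54, and 34 of 35 lay above 0. With so few spots above background, these means are not exact levels. Without the filter the median over all genes was above 0 as well. It was 0.31 for the 2791 genes with 3 or more probes and 0.33 for the 5141 with 1 or 2. The groups of bulls overlapped in all 35, and the share over all genes without the filter was not counted. High-fertile minus subfertile, the difference was above 0 in 27 of the 35, with a median of 0.52. Over all genes without the filter the median difference was 0.26 for the 2791 and 0.25 for the 5141.

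RBM14, RBM4 and RBM4B are neighbours on chromosome 29, with tested probes from 46566569 to 46615227. RBM14, a coactivator with RNA recognition motifs, averaged -0.35 and rose by 0.97 ± 0.27 between scan dates (limma adjusted p = 0.0418) but not with centring on tested probes (adjusted p = 0.0825). RBM4 averaged 0.14 and RBM4B -0.37, with changes between dates of 0.32 and -0.20 that did not pass the threshold. Whether the 3 genes differ was not tested.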
